A study of Homo sapiens with 4 samples.

Results

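The 10 genes described here encode subunits of BAF and PBAF, the SWI/SNF chromatin remodelling complexes of human cells: ARID1A, ARID1B, ARID2, PBRM1, SMARCA4, SMARCA2, SMARCB1, SMARCC1, SMARCC2 and SMARCE1. For each gene, every H3K4me3 peak that overlapped the 2 kb on either side of the start site (hg19 coordinates) was taken. This gave 11 of the 36677 peaks of the control cells and 16 of the 23588 peaks of the ARID1A knockout cells, 27 of 60265 in all. H3K4me3, trimethylation of lysine 4 of histone H3, is a mark of active promoters and was measured by ChIP-seq in MDA-MB-231 cells, a long-established line of triple-negative breast cancer. The control group carried the genotype label control and the other group the label ARID1A knockout, with no treatment named for either. Each genotype had 1 immunoprecipitate (IP) and 1 input library, so no difference between them had a replicate check and no test of the genotype was possible. The sources used here do not say how the knockout was made or whether it was 1 clone or a pool.

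BAF and PBAF use the energy of ATP to slide or eject nucleosomes, and they keep promoters and enhancers accessible. Both are built on a SMARCC1 and SMARCC2 scaffold with SMARCE1 and SMARCB1 and are driven by 1 ATPase, either SMARCA4 (BRG1) or SMARCA2 (BRM). BAF holds ARID1A or its paralog ARID1B, which cannot be present in the same complex, and PBAF holds ARID2 and PBRM1 in their place. Cells that lack ARID1A are known to depend on ARID1B, and cells that lack SMARCA4 on SMARCA2.

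The libraries stood apart as a whole, and this touches every value below. The control IP held 27748061 tags and the knockout IP 13391724. The median peak width was 2968 bp over the whole control list and 300 bp over the whole knockout list, the latter equal to the fragment length set in the peak caller. Peaks held 62.1% of the control IP tags and 99.4% of the knockout IP tags. The share of the genotype in this difference and in the values of the subunit genes cannot be told apart from that of the library. The inputs carry IgG as their antibody label, 3 of the 4 libraries have cell line labels with a last digit unlike that of the series title, and the knockout list gives its library name as K6. Intervals are exact Poisson or binomial 95% intervals and cover counting error alone. No molecular identifiers are mentioned, and repeated copies of a fragment may each count as a tag. Tags were dense in some knockout peaks, with 1602 in 467 bp at SMARCC2. Where tags are repeated copies, the intervals are too narrow.

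All 10 start sites lay inside a control peak, and 9 of the 10 genes had a knockout peak within 2 kb. SMARCE1 was the gene without one. The control peaks that covered the start sites, called domains here, were 3785 to 10533 bp wide. The 16 knockout peaks were 300 to 1819 bp wide, and all 16 overlapped these domains. At every gene but SMARCB1 the domain spanned the whole window, so there the overlap was fixed by the choice of peaks. Of all knockout peaks, 60.3% overlapped a control peak and 39.7% did not, shares that are no measure for these 16. Over the whole genome, 8.79% of consecutive windows of 4001 bp met a control peak and 3.01% met a knockout peak. Those windows are not gene starts, for which no hg19 annotation was used here. The comparison shows only that the subunit genes' windows met peaks in both lists, except that of SMARCE1, which met none in the knockout list.

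Around strong control peaks in general a knockout peak was common. Within 2 kb of the summits of the strongest 10% of control peaks by tags, a knockout peak was present in 79.8% of cases, and in 28.4% over all control peaks. The count of 9 in 10 genes is near the first of these shares. Of the 11 control peaks of the subunit genes, 9 overlapped a knockout peak (81.8%, exact Clopper-Pearson interval 48.2 to 97.7%), against 28.4% of the whole list, where 71.6% overlapped none, and 84.2% of its strongest 10%. Of these 11, 8 belonged to that strongest 10%, which began at 1305 tags, and 7 of the 8 overlapped a knockout peak.

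**Figure D1:**
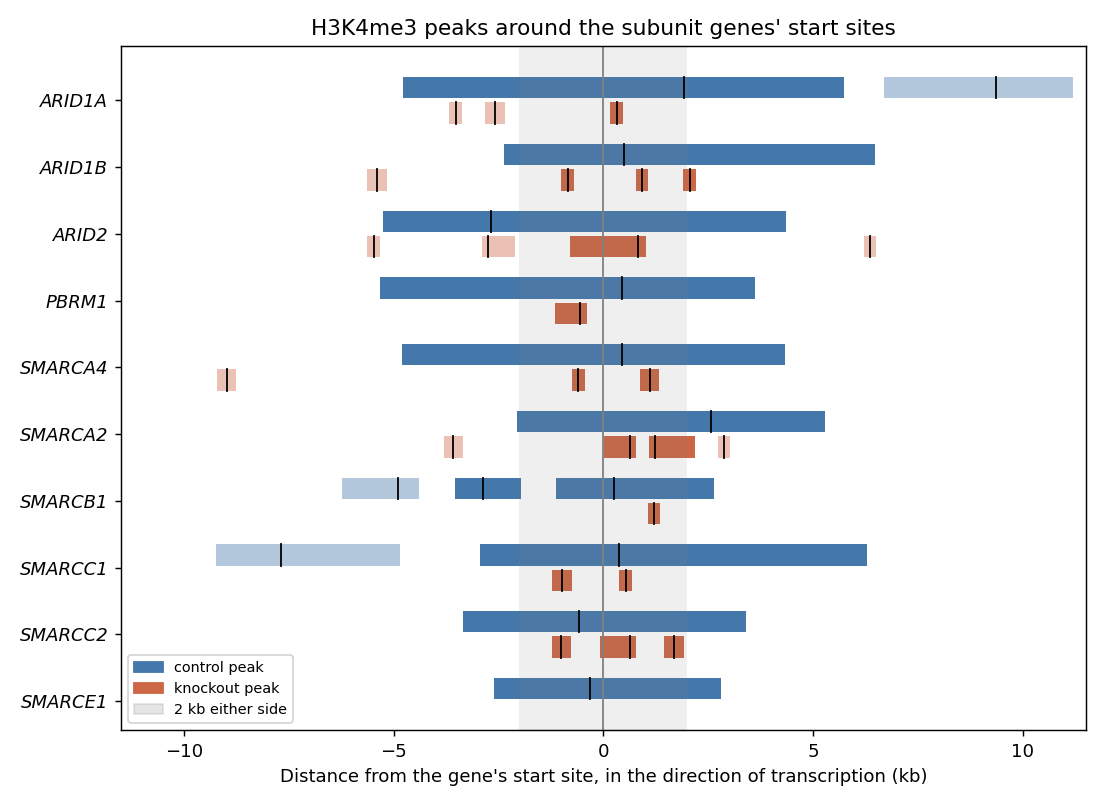
Positions of the peaks within 10 kb of the 10 start sites, drawn in the direction of transcription in kb, with control peaks in blue, knockout peaks in orange, summits as black lines and peaks outside the 2 kb window (grey band) in pale colours. Each start site lies inside a blue domain, while the full-colour orange peaks are short stretches within it, 2 of them over a start site, and SMARCE1 has none.

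Promoter sequences were taken from RefSeq (GRCh38.p14) by gene symbol, and 7 of the 10 genes had an entry. ARID2, SMARCC1 and SMARCC2 had none. Of the 7, 3 had a single entry, and only these are shown. They are ARID1A, the knocked-out gene, SMARCB1, which has the smallest control domain, and SMARCE1, which has no knockout peak. Each is the 250 bases before the start, 5′ to 3′ on the gene's strand, with every CpG in capitals, since unmethylated CpG-rich DNA is where H3K4me3 is usually placed. ARID1A is at chr1:26695765-26696014 (plus strand), SMARCB1 at chr22:23786716-23786965 (plus strand) and SMARCE1 at chr17:40647819-40648068 (minus strand).
ARID1A: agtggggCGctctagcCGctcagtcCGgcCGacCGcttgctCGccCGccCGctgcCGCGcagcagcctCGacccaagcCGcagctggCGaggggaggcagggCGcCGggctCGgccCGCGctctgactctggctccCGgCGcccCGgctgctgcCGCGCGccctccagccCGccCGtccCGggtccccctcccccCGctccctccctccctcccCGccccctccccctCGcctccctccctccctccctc
SMARCB1: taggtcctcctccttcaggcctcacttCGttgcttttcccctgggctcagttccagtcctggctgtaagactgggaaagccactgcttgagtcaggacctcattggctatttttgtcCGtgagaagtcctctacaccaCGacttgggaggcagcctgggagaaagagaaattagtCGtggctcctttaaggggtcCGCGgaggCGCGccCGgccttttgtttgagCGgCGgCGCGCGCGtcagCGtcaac
SMARCE1: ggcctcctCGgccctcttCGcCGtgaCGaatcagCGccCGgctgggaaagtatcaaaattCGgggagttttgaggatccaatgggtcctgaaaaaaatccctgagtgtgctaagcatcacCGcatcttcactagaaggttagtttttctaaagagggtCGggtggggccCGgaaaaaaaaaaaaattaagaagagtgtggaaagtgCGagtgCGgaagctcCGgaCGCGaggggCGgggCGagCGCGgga
The ARID1A stretch had 30 CpGs and 80.4% G and C, the SMARCB1 stretch 16 CpGs and 58% G and C, and the SMARCE1 stretch 19 CpGs and 54.4% G and C. The median over all 35116 entries of the table was 11 CpGs and 58% G and C. All 3 stretches were therefore richer in CpG than the median entry, including that of the gene without a knockout peak. The share of entries with as many CpGs or fewer was 89.1% for ARID1A, 61.0% for SMARCB1 and 67.6% for SMARCE1. By G and C, ARID1A was above the median, SMARCB1 at it and SMARCE1 below it. On either strand, the GC box (GGGCGG) was found 3 times in the ARID1A stretch, 1 time in the SMARCE1 stretch and not in the SMARCB1 stretch, and 42.6% of all entries held at least 1. The CCAAT box (CCAAT) was found 1 time each in the SMARCB1 and SMARCE1 stretches, not in the ARID1A stretch, and in 32% of all entries. The letters TATAAA were in none of the 3 and in 10.7% of all entries. The peaks are in hg19 coordinates and were not placed on these sequences. For ARID1B, PBRM1, SMARCA4 and SMARCA2 the table had 2 to 4 entries each, and the most CpG-rich entry held 37, 40, 44 and 29 CpGs in that order.

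The ARID subunits bind DNA and set which complex is formed. ARID1A, the gene targeted in the knockout, has its start at position 27022522 of chromosome 1. In control cells its domain ran from 27017736 to 27028268, 10533 bp, the widest of the 10, with 2114 tags (2025 to 2206) and its summit 1934 bp downstream of the start. In the library labelled knockout, the window held a single 300 bp peak, from 168 to 467 bp downstream, with 93 tags (75.1 to 113.9). More knockout tags lay farther upstream in the same domain: a 456 bp peak from 2355 to 2810 bp upstream held 1175 tags (1109 to 1244), and a 300 bp peak from 3368 to 3667 bp upstream held 451. ARID1A thus still had peaks within its domain in the knockout list, with 1719 tags in 3 peaks, of which 68.4% were in the 456 bp peak. These peaks covered 10.03% of the domain's length, and none covered the start site. A promoter mark at this gene does not check the label, because a coding change can leave the promoter and its mark in place.

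ARID1B, the paralog of ARID1A, starts at position 157099064 of chromosome 6. Its control domain ran from 157096692 to 157105536, 8845 bp in length, with 2099 tags (2010 to 2191) and a summit 492 bp downstream. The counting intervals of the paralogs' control tags overlapped, at 2114 for ARID1A and 2099 for ARID1B. In the knockout list ARID1B had 3 narrow peaks in the window, which flanked the start site. They held 442 tags at 695 to 997 bp upstream, 44 tags at 777 to 1076 bp downstream and 534 tags at 1908 to 2207 bp downstream. Their sum of 1020 tags (958 to 1085) compares with 93 for ARID1A within 2 kb of the start, but was 0.593 times that of ARID1A over the whole control domains. The order of these paralogs in the knockout list therefore depended on how far from the start the tags were counted.

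ARID2, the ARID subunit of PBAF, starts at position 46123620 of chromosome 12. The control domain ran from 46118374 to 46127982, 9609 bp in length, with 2399 tags (2304 to 2497), and its summit lay 2676 bp upstream of the start. It carried the strongest knockout peak of the 10 genes, 1819 bp wide from 802 bp upstream to 1016 bp downstream, with 3736 tags (3617 to 3858). That peak ranked 44 of the 23588 knockout peaks by tags and was 1 of only 2 member peaks of 1 kb or more. A second knockout peak with 662 tags ended 104 bp outside the window and had its summit 73 bp from the control summit. With it, the ARID2 domain held 4398 knockout tags, and knockout peaks covered 27.2% of its length.

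PBRM1, the bromodomain subunit through which PBAF binds acetylated histones, starts at position 52719866 of chromosome 3 on the minus strand. Its control domain ran from 52716259 to 52725195, 8937 bp in length, with 1708 tags (1628 to 1791) and a summit 444 bp downstream. The knockout list held 1 peak there, 763 bp wide, from 396 to 1158 bp upstream of the start, with 638 tags (589 to 689). In the knockout list the genes of the PBAF-specific pair differed from each other, since ARID2 had 3736 tags over the start site and PBRM1 638 tags upstream of it. Per kb of peak width these were 2054 tags (1989 to 2121) for ARID2 and 836 tags (773 to 904) for PBRM1.

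SMARCA4 and SMARCA2 are the alternative ATPases, the motor of either complex. SMARCA4 starts at position 11071598 of chromosome 19, and its control domain from 11066791 to 11075921 held 1563 tags (1486 to 1642) over 9131 bp. SMARCA2 starts at position 2015342 of chromosome 9, and its control domain from 2013283 to 2020623 held 2993 tags (2887 to 3102) over 7341 bp. This was the strongest domain of the 10, ranked 313 of 36677 control peaks by tags. Per kb of width the control level was 408 tags (393 to 423) at SMARCA2 and 171 tags (163 to 180) at SMARCA4.

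In the knockout list SMARCA4 had 2 peaks, with 433 tags from 431 to 757 bp upstream and 174 tags from 879 to 1338 bp downstream. SMARCA2 had 2 peaks in the window, both downstream, with 357 tags from 27 to 790 bp and 1386 tags from 1095 to 2182 bp. Another knockout peak in the SMARCA2 domain, from 2733 to 3032 bp downstream, held 14 tags (7.65 to 23.5). SMARCA2 was the higher of the pair in both lists, at 1.91 times the control tags of SMARCA4 and 2.87 times its knockout tags within 2 kb. The length called as knockout peaks there also differed, at 1852 bp for SMARCA2 and 787 bp for SMARCA4. Per kb of that length SMARCA2 had 941 tags (897 to 986) and SMARCA4 771 tags (711 to 835). Over whole domains SMARCA2 had 816 tags per kb (779 to 856), an interval that overlapped that of SMARCA4. Whether these ratios differ between genotypes was not tested, since each rests on 1 library.

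Of the core subunits, SMARCB1 had the smallest control domain. The gene, which encodes the subunit that docks the complex on the nucleosome's acidic patch, starts at position 24129150 of chromosome 22. Its start lay in a control peak from 24128016 to 24131800 with 534 tags (490 to 581) over 3785 bp, at the 70.9th percentile of the control list by tags. A second, weak control peak reached into the window from upstream and held 54 tags over 1577 bp, with a false discovery rate of 8.86%. The single knockout peak, 300 bp wide from 1055 to 1354 bp downstream, held 633 tags (585 to 684). SMARCB1 was therefore lowest in the control list by tags and by tags per kb (141 tags per kb, 129 to 154), while its knockout level per kb of peak width, 2110 tags (1949 to 2281), was first within 2 kb of the starts, with an interval that overlapped that of ARID2 (2054 tags).

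SMARCC1 and SMARCC2 are the paralogous scaffold subunits. SMARCC1 starts at position 47823405 of chromosome 3 on the minus strand, with a control domain from 47817115 to 47826355 that held 2054 tags (1966 to 2145) over 9241 bp. SMARCC2 starts at position 56583351 of chromosome 12, also on the minus strand, with a control domain from 56579937 to 56586706 that held 1193 tags (1126 to 1263) over 6770 bp. In the knockout list SMARCC1 had 97 tags from 385 to 684 bp downstream and 1166 tags from 757 to 1221 bp upstream. SMARCC2 had 1602 tags from 764 to 1230 bp upstream, 586 tags in a peak that covered the start site and reached 789 bp downstream, and 892 tags from 1449 to 1915 bp downstream. The order of this pair was opposite in the lists. SMARCC1 had 1.72 times the control tags of SMARCC2, and SMARCC2 had 2.44 times the knockout tags of SMARCC1, with 3080 (2972 to 3191) against 1263 (1194 to 1335). Per kb of peak width the pair's knockout intervals overlapped, at 1700 tags (1640 to 1761) for SMARCC2 and 1651 tags (1561 to 1745) for SMARCC1, so the difference in knockout tags went with a difference in the length called as peaks (1812 and 765 bp).

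SMARCE1, which encodes a core subunit with a high mobility group domain, starts at position 38804103 of chromosome 17 on the minus strand. In control cells its domain ran from 38801299 to 38806714 and held 1494 tags (1419 to 1572) over 5416 bp, with the summit 311 bp upstream of the start. At 276 tags per kb (262 to 290) it was second only to SMARCA2 among the 10 control domains. The knockout list had no peak at this gene. The nearest lay 79769 bp from the domain, 300 bp wide with 258 tags. Of the 3668 peaks that make up the strongest 10% of control peaks by tags, 579 likewise had no knockout peak, and for 130 of these (22.5%) the nearest was at least as far away. A peak list holds only regions past the caller's threshold, so the number of knockout tags at SMARCE1 is unknown and no ratio was computed for it.

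**Figure D2:**
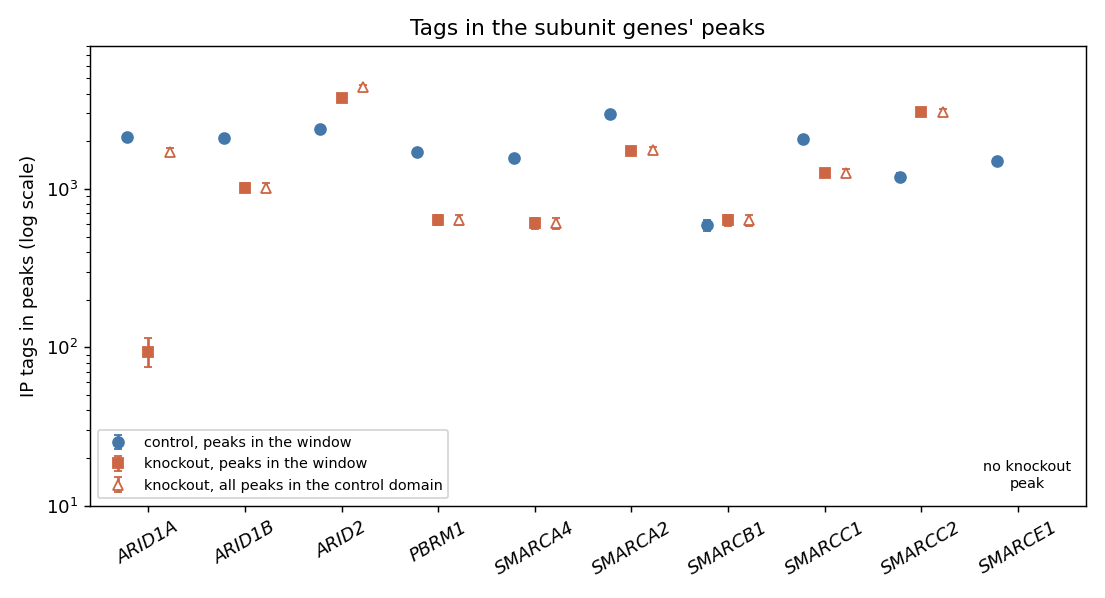
IP tags in peaks for each gene on a log axis, with exact Poisson 95% intervals, for control peaks in the 2 kb window (circles), knockout peaks in the window (squares) and all knockout peaks that overlap the same control peaks (open triangles). Control tags span 588 (both SMARCB1 peaks) to 2993 (SMARCA2), the knockout window tags span 93 at ARID1A to 3736 at ARID2, and only ARID1A differs much between square and triangle (93 and 1719).

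Ordered by control tags per kb, the domains that cover the start sites ran from SMARCA2 (408) through SMARCE1 (276), ARID2 (250), ARID1B (237), SMARCC1 (222), ARID1A (201), PBRM1 (191), SMARCC2 (176) and SMARCA4 (171) to SMARCB1 (141). Counting intervals of neighbours in this order overlapped between ARID2 and ARID1B, ARID1B and SMARCC1, ARID1A and PBRM1, PBRM1 and SMARCC2, and SMARCC2 and SMARCA4. In the knockout list the order by tags per kb of peak width, over the peaks within 2 kb of the start, was another one. It ran from SMARCB1 (2110), ARID2 (2054), SMARCC2 (1700) and SMARCC1 (1651) to ARID1B (1130), SMARCA2 (941), PBRM1 (836), SMARCA4 (771) and ARID1A (310). SMARCB1 was last of the 10 genes in the first order and first of 9 in the second. That first place rests on a called width of 300 bp, which 55% of all knockout peaks had. By tags the SMARCB1 knockout peak (633) ranked 7683 of 23588. The last place of ARID1A rested on the 2 kb limit. Over all knockout peaks of its domain ARID1A had 1628 tags per kb (1552 to 1707), an interval that overlapped those of SMARCC1 (1651), ARID2 (1682) and SMARCC2 (1700). SMARCB1 remained first in that count and SMARCA4 (771) was last, with an interval that overlapped that of SMARCA2 (816).

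Against the whole control list, the 10 domains were broad and tag-rich. Their median width was 8891 bp against 2968 bp for all control peaks, and their median was 1881 tags against 168. The strongest 10% of control peaks had medians of 8010.5 bp and 1716 tags. With the weak second SMARCB1 peak included, the medians of the 11 control peaks were 8845 bp and 1708 tags. In the knockout list the median width of the member peaks was 462.5 bp, against 300 bp over the list, and the median was 560 tags against 419. A width of exactly 300 bp was found for 5 of the 16 (31.2%), against 55% of all knockout peaks.

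**Figure D3:**
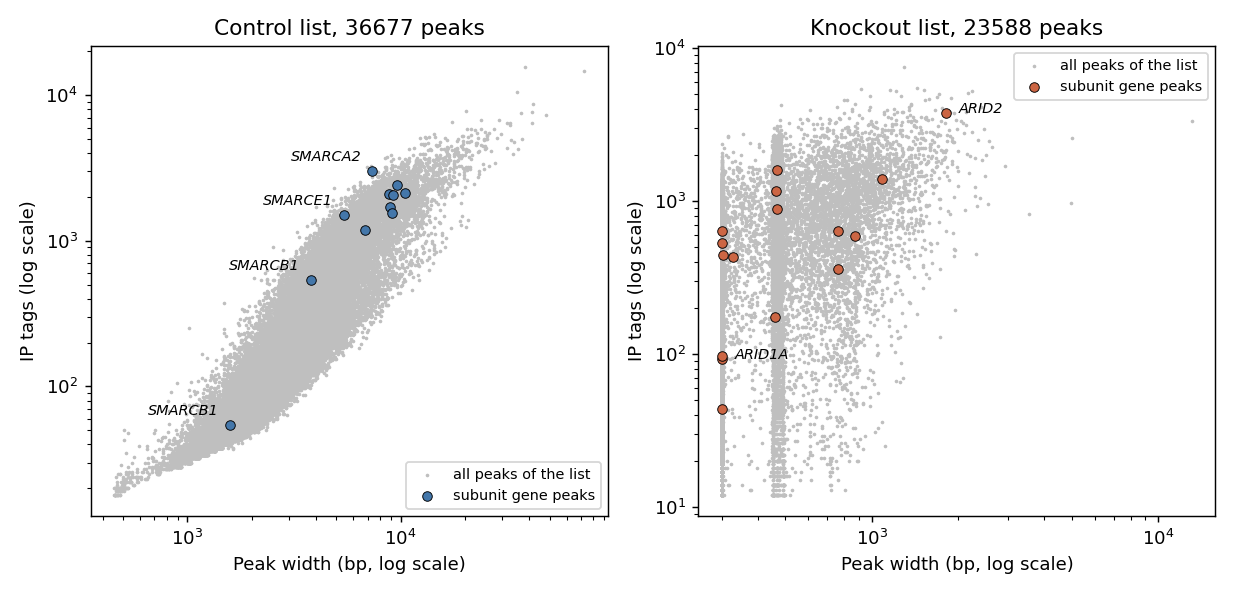
Peak width in bp against IP tags, both on log axes, for all peaks of each list (grey) and the subunit gene peaks (coloured), control on the left and knockout on the right. Of the 11 control points, 8 lie in the strongest 10% by tags and the weak second SMARCB1 peak with 54 tags lies near the bottom, whereas the knockout points spread from 44 to 3736 tags.

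Within the domains, the knockout peaks mostly lay beside the start site and beside the control summit. The start site itself lay inside a knockout peak at 2 of the 10 genes, ARID2 and SMARCC2, and inside a control peak at all 10. Of the 16 knockout summits of peaks in the window, 11 were downstream of the start and 5 upstream. The domains held 4 more knockout peaks outside the window, upstream at ARID1A and ARID2 and downstream at SMARCA2, so the lean depends on the 2 kb limit. No such share was computed for other genes. ARID1B, SMARCA4 and SMARCC1 had knockout peaks in the window on both sides of an uncovered start site. Of the 11 control summits, 1 lay inside a knockout peak, that of ARID2, against 12.9% over all control peaks and 41.9% over the strongest 10%. In the 9 domains that held a knockout peak, the nearest knockout summit was 73 to 1617 bp from the control summit, with a median of 434 bp. The median was 341 bp over all control peaks with a knockout peak and 352 bp over the strongest 10%. Knockout peaks covered 10.03% of the member domains' length at the median, near the 10.4% over all control peaks with a knockout peak and 9.69% over the strongest 10%.

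Most of these domains held several separate knockout peaks. Of the 11 control peaks, 7 overlapped at least 2 knockout peaks, those of ARID1A, ARID1B, ARID2, SMARCA4, SMARCA2, SMARCC1 and SMARCC2. The share was 7.8% of all control peaks and 42.9% of the strongest 10%. Of the 8 member peaks in the strongest 10%, 6 overlapped at least 2.

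To set the libraries on 1 scale, the log2 of knockout over control tags was centred on its median over the 7552 peaks of the whole lists that match 1 to 1 (raw median -0.46, SD 1.96). The control side was always the tags of whole control peaks, which reach beyond 2 kb. The knockout side was first limited to peaks within 2 kb of the start, so a part was set against the whole. With that limit, 3 genes lay above that median and 6 below, and SMARCE1 had no value. SMARCC2 was highest at 1.82 (1.73 to 1.92), followed by ARID2 at 1.09 (1.02 to 1.17) and SMARCB1, with both control peaks counted, at 0.56 (0.40 to 0.73). SMARCC1 and SMARCA2 were close to the median, at -0.25 (-0.35 to -0.14) and -0.32 (-0.41 to -0.24). ARID1B was at -0.58 (-0.69 to -0.48), SMARCA4 at -0.91 (-1.04 to -0.77) and PBRM1 at -0.96 (-1.10 to -0.83). ARID1A was lowest at -4.04 (-4.36 to -3.75), a value that sets 93 knockout tags in 300 bp against 2114 control tags in 10533 bp. It was at 0.16 (0.07 to 0.25) when the knockout tags of its whole control domain were counted. Division by the library totals in place of the centring adds the same 0.60 to the ratio of every gene, so the order of the genes is kept, while ARID1B, SMARCA2 and SMARCC1 come to lie above 0. Per kb of peak width, and still within 2 kb of the start, ARID2 was at -0.026 and SMARCC2 at 0.20. On that scale SMARCB1 was highest at 1.20, SMARCA2 was at -1.86 and ARID1A stayed lowest at -2.42. SMARCC1 was at -0.17, ARID1B at -0.81, SMARCA4 at -0.89 and PBRM1 at -0.94.

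**Figure D4:**
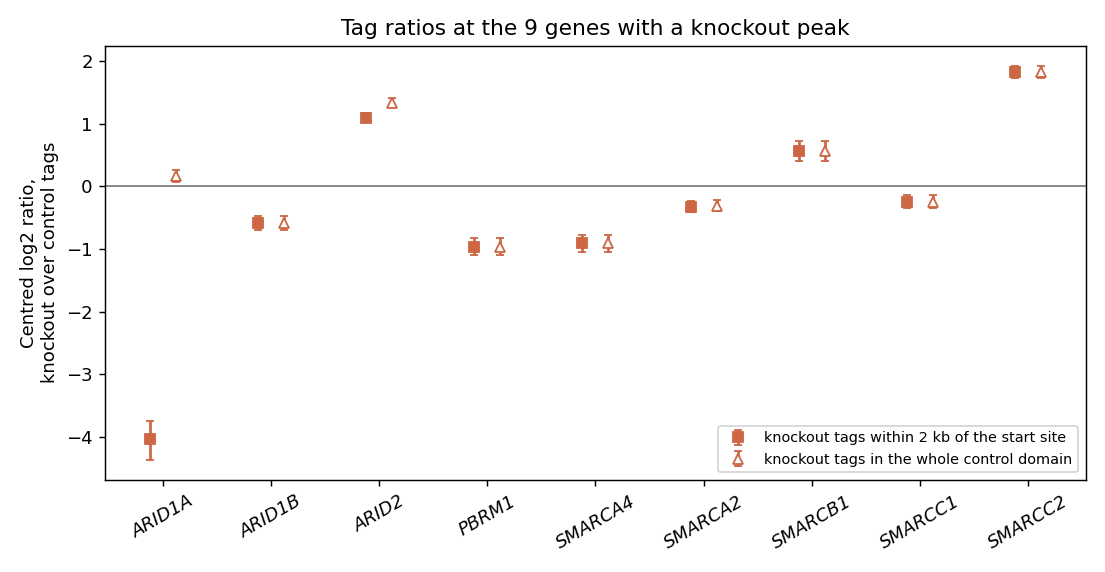
Log2 of knockout over control tags, centred on the median of the 1 to 1 matched peaks (0, grey line), for the 9 genes with a knockout peak, with exact binomial 95% intervals. Squares count knockout tags within 2 kb of the start and open triangles those of the whole control domain, and ARID1A moves from -4.04 to 0.16 between them. Both are set against the tags of whole control peaks.

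Over whole domains, 2 of the 9 genes, ARID2 and SMARCC2, had a ratio more than 2-fold above the centre and none had one more than 2-fold below. Among all 10427 control peaks with a knockout peak, 27.9% were past 2-fold upward and 24.5% past 2-fold downward. The member values ran from -0.96 at PBRM1, at the 25.2nd percentile of those 10427, to 1.82 at SMARCC2, at the 86.3rd percentile. The median over the 9 was -0.25, and 0.12 over all. ARID1A, the targeted gene, was at the 50.7th percentile.

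The 2 kb limit decided which peaks counted at a few genes. Just inside it were the weak SMARCB1 control peak, which ended 1964 bp upstream, and the ARID1B knockout peak that began 1908 bp downstream. Just outside were the ARID2 knockout peak with 662 tags (104 bp beyond) and the ARID1A knockout peak with 1175 tags (355 bp beyond).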

How the data were processed

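Per the submitters' processing notes and the file headers, adapter-trimmed reads were aligned with Bowtie2 2.2.4 to hg19, and MACS 1.4.3 called peaks on 1 IP against 1 input per genotype (p cutoff 0.0001, fragment length 300 bp, larger library scaled to the smaller). Nothing was pooled. The inputs held 14878873 tags (control) and 17890122 tags (knockout). The deposited tags are raw counts of IP tags in each peak. The deposited score is the MACS p on a negative log10 scale, multiplied by 10. Its column name was lost, and its place identified it. The deposited fold enrichment is a ratio of IP over local input background. The authors' false discovery rates are in percent. These 3 were used only as filters or to describe a peak.

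Start sites were given in hg19, and strands came from the RefSeq promoter table for 7 genes and from general knowledge for ARID2, SMARCC1 and SMARCC2. Peaks sharing at least 1 bp were counted as overlapping, checked against bedtools 2.31.1. Summit offsets were counted from 1 at the peak start. A domain is a control peak that covers a start site. Control tags of a gene were summed over all control peaks in the window, which adds the second peak at SMARCB1 only. Ratios used a pseudocount of 1. The overlap step was also checked pair by pair on the real peaks of a single chromosome, and the ratio step on simulated counts. Tools were pandas 2.3.3, scipy 1.17.1, numpy 2.4.6 and matplotlib 3.10.9 under Python 3.11.15. Members, windows and lists were chosen with earlier results of these data known, and all 10 genes are named. Other subunit genes (SMARCD1, ACTL6A, BRD7, BRD9, PHF10 and the like) were not analysed here, since they need an hg19 annotation. Alternatives covered the window, stricter thresholds, the overlap rule, the scaling and the pseudocount.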

Additional observations from a re-analysis of the deposited data

How the results depend on the processing

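Of 72 recomputed values, 48 kept their sign and stayed within 1.5 times (counts, widths) or within the counting interval (shares, ratios). Every count of genes with a control peak (8 to 10) or a knockout peak (7 to 9) was among these. The knockout count was 8 within 1 kb, 9 within 5 kb, and, in alternatives chosen after seeing the data, 7 with only knockout peaks wider than 300 bp and 8 with only those of 100 tags or more. The centred ratios moved most. Their median over the 9 genes, -0.32 within 2 kb of the start, was 0.27 after division by the library totals without centring, 0.029 with a window of 5 kb, and -0.81 per kb of peak width, so it carries no direction. Single genes that changed sign were ARID1B (0.011), SMARCA2 (0.27) and SMARCC1 (0.35) under the library totals, ARID2 (-0.026) per kb, ARID1A (0.16) over its whole domain or within 5 kb, and SMARCA2 (0.029) within 5 kb. Using the library totals in place of the centring adds 0.60 to every gene alike, which by construction moves the genes nearest 0 across it. At ARID1A and SMARCA2 the change over a wider stretch follows from the added peaks. At ARID2 the tags stayed the same. The change came with division by the called widths, 1819 bp in the knockout and 9609 bp in the control, and with a centre recomputed per kb. No paired analysis was possible because each genotype has 1 IP library. With 1 library per genotype, depth says nothing of the spread between cultures.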

Other observations

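Of the 25 knockout peaks within 10 kb of the 10 start sites, 5 lay outside the control domains of these genes, and none of the 5 overlapped any control peak. Of all knockout peaks, 39.7% overlapped no control peak. The strongest was upstream of SMARCA4, from 8750 to 9206 bp, with 1482 tags (1407 to 1559) in 457 bp, more than the 607 tags of both SMARCA4 window peaks together. The others held 547 tags at 5325 to 5624 bp upstream of ARID2, 94 tags at 6213 to 6512 bp downstream of ARID2, 556 tags at 5168 to 5631 bp upstream of ARID1B and 469 tags at 3352 to 3805 bp upstream of SMARCA2. In the control list, 3 peaks within 10 kb lay outside the windows, with 133 tags downstream of ARID1A, 333 tags upstream of SMARCC1 and 54 tags upstream of SMARCB1. None of these 3 overlapped a knockout peak, which was also the case for 71.6% of all control peaks.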
